A study of Mus musculus with 2 samples.

Results

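The delta-catenins, the plakophilins, plakoglobin and beta-catenin are armadillo-repeat proteins that bind the cytoplasmic tails of cadherins at cell-cell junctions. Transcripts of 9 genes that encode them, *Ctnnd1*, *Ctnnd2*, *Arvcf*, *Pkp1*, *Pkp2*, *Pkp3*, *Pkp4*, *Jup* and *Ctnnb1*, were measured by gene expression microarray in mouse cardiomyocytes (MCMs) after knockdown of *Ppp2r5d*, which encodes the B56δ regulatory subunit of protein phosphatase 2A (PP2A). These 9 genes were chosen by measured values of the same comparison, because *Ctnnd2* and *Arvcf* were both lower with siRNA-*Ppp2r5d*, and the rest were added as genes of the same protein family. Their values are therefore given as a description. They account for 9 of 37074 gene names and 26 of 56605 non-control probes on the array.

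The MCMs were bought as cultured mouse cells and passaged before use. In the siRNA-NC group, cells received a negative control siRNA, and in the siRNA-*Ppp2r5d* group an siRNA against *Ppp2r5d*, with the same transfection reagent. Cells of both groups had a period in glucose-free medium before RNA was collected 64 h after transfection, and the labels name no genotype, sex or other agent. Each group had 1 array, and no p-value is given, as the spread between cultures was not measured. Both arrays lay on 1 slide and were scanned together.

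In adherens junctions, p120-catenin and its relatives delta-catenin and ARVCF hold classical cadherins at the membrane. In desmosomes, plakophilins and plakoglobin tie the desmosomal cadherins to desmoplakin and thereby to intermediate filaments. Cardiomyocytes join both kinds of junction at the intercalated disc, where plakophilin-2, plakoglobin and desmoplakin are known for their part in arrhythmogenic cardiomyopathy. Beta-catenin links classical cadherins to alpha-catenin and also carries WNT signals to the nucleus. Its turnover in the cytoplasm is set by a destruction complex, with which PP2A is known to associate.

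The probes behind the largest differences are shown first, because each value below is the signal of such a 60-base sequence. A stretch of 30 bases is given for each of the 5 probes of *Ctnnd2*, *Arvcf* and *Pkp2* that were measured on both arrays. Capitals mark the longest run that any pair of probes from different members had in common, which was 11 bases, between *Ctnnd2* and *Arvcf*.
Ctnnd2, chr15:30959005-30959064, plus strand, probe bases 24 to 53: gaggccaacaGGTGCCTGGCAaatgttaac
Arvcf, chr16:18406781-18406840, plus strand, probe bases 18 to 47: tcagaatctgGGTGCCTGGCAgacatgcct
Arvcf, chr16:18406083-18406142, plus strand, probe bases 1 to 30: accacagggagggctgctctaaaagagtcc
Pkp2, chr16:16272648-16272707, plus strand, probe bases 1 to 30: tgagtgtgcaccggaggaacacctgagaaa
Pkp2, chr16:16248126-16248185, plus strand, probe bases 1 to 30: tccctaggttgaagggacactcagcatctg
Coordinates are those of the scanner files, in mouse genome build mm9. The capitalised run occurs in 3 of the 56605 probes, and the *Ctnnd2* and *Arvcf* probes are the only 2 of these that were measured on both arrays. None of the 26 probes shared a word of 25 bases with a probe of another gene. Exon and untranslated region annotation of the probes was not analysed here.

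The level of a probe is its background-corrected intensity, and its error is the scanner software's own estimate, which covers the spot and not the culture. For the comparison, each array was divided by its 75th percentile, which was 593 with siRNA-NC and 519 with siRNA-*Ppp2r5d*, and differences are log2 fold changes of siRNA-*Ppp2r5d* over siRNA-NC. Of 59305 non-control spots, 35544 and 35174 were well above background by the scanner's mark and none was saturated. The lowest such signal was 14.9 and 13.5. The targeted gene *Ppp2r5d* had an intensity of 4701 with siRNA-NC and 676 with siRNA-*Ppp2r5d*, 6.08-fold lower by its 1 probe, chr17:46819940-46819973.

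Of the 26 member probes, 18 were well above background on both arrays, 3 with siRNA-NC alone, none with siRNA-*Ppp2r5d* alone and 5 on neither. All 18 had a lower raw intensity with siRNA-*Ppp2r5d*, the array with the lower 75th percentile. After scaling, 12 were lower, 3 of these at least 2-fold, and 6 were higher, with a median log2 fold change of -0.07. The scanner error of these log2 fold changes had a median of 0.21 and ran from 0.20 to 0.34. At the level of genes, 8 of the 9 members had a value. Beside 45.8% lower among all genes measured on both arrays, 5 of these 8 were lower and 3 higher. At least 2-fold lower were *Ctnnd2* and *Arvcf*, the genes behind the choice of the members, and 0 were at least 2-fold higher. For comparison, 21701 genes on the array passed the background mark on 1 or both arrays, of which 1.46% were at least 2-fold lower and 1.07% at least 2-fold higher. Since the members were selected on this comparison, nothing is read from their count against that share. Their median was -0.13, and 0.026 for the 20350 genes measured on both arrays, and 5 of the 8 had a log2 fold change under 0.25 in size. As the RNA comes from whole cultures, fewer cells of a type and less RNA per cell cannot be told apart.

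**Figure D1:**
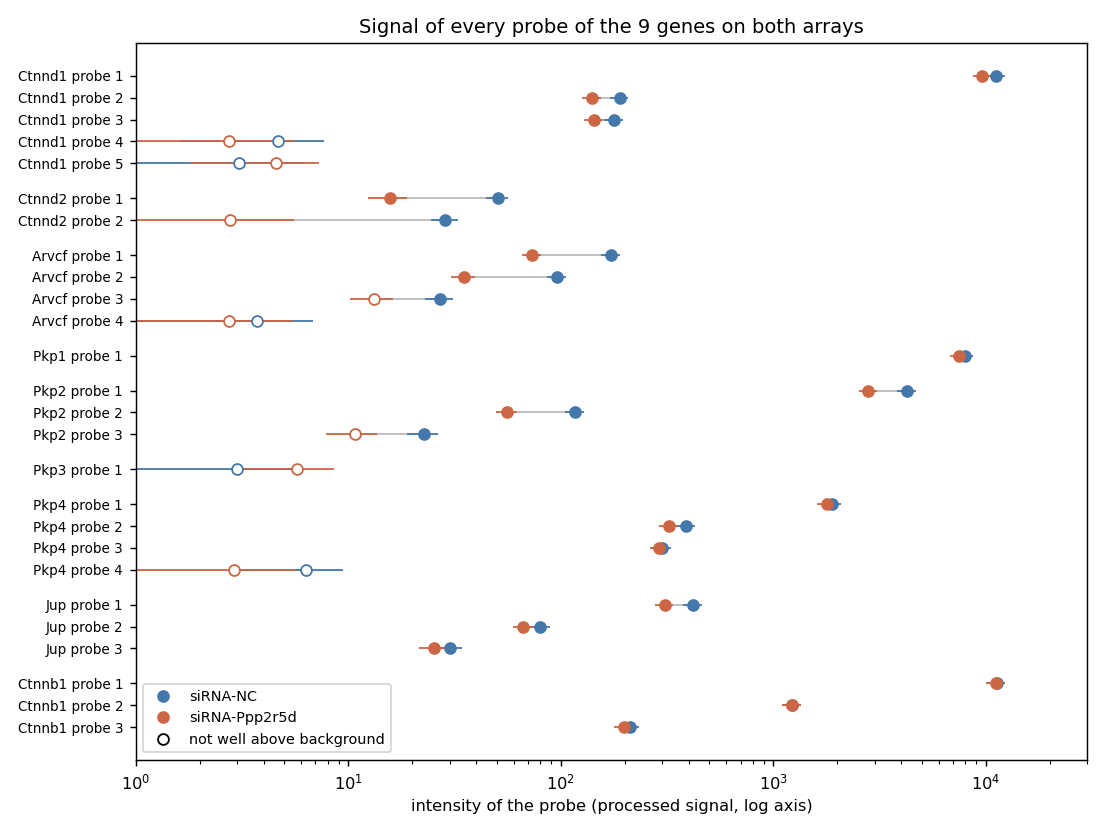
Intensity of each of the 26 probes of the 9 genes on the siRNA-NC and siRNA-Ppp2r5d arrays, on a log axis, with the scanner error as bars. Open circles are not well above background, and probes of a gene are numbered by their siRNA-NC signal. The points of Ctnnd2 probe 1 (50.6 and 15.6) and of Arvcf probes 1 and 2 lie clearly apart, whereas those of the 3 Ctnnb1 probes nearly coincide.

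Among the delta-catenins, *Ctnnd2* and *Arvcf* were lower with siRNA-*Ppp2r5d*, whereas the value of *Ctnnd1* lay near 0. *Ctnnd2* encodes delta-catenin, a relative of p120-catenin best known from neurons and dendrites. Its probe at chr15:30959005-30959064 had an intensity of 50.6 ± 5.92 (scanner error) with siRNA-NC and 15.6 ± 3.22 with siRNA-*Ppp2r5d*. The log2 fold change was -1.50 with a scanner error of 0.34, that is 2.83-fold lower, or 35.4% of the control. The lower of these signals lay just above 13.5, the lowest signal well above background on that array. The other *Ctnnd2* probe, chr15:30957708-30957767, had an intensity of 28.6 with siRNA-NC and was not well above background with siRNA-*Ppp2r5d*, at 2.76. Against the lowest signal well above background it was at least 1.86-fold lower. Both probes of the gene were thus lower with siRNA-*Ppp2r5d*, and 1 of them gives a bound only.

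*Ctnnd2* was a dim gene, and dim genes varied most between the arrays. Of 3424 genes with a mean intensity under 50, 2.51% were at least 2-fold lower, and the 5th percentile of their log2 fold changes was -0.78. Of 6684 genes over 1000, this share was 0.209% and the percentile -0.32. Among all 20350 genes measured on both arrays, 42 had a lower value than *Ctnnd2*, or 0.206%. *Ctnnd2* was chosen for its low value on these arrays, so nothing is read from this rank. The size of its difference depended on the background step, with a log2 fold change of -0.36 after normexp correction with an offset of 50, no longer 2-fold, and of -2.34 when dim probes were not left out.

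*Arvcf* encodes another catenin of the p120 family, named for a gene region deleted in velocardiofacial syndrome. The probe at chr16:18406083-18406142 had an intensity of 172 with siRNA-NC and 73.2 with siRNA-*Ppp2r5d*, a log2 fold change of -1.04 with a scanner error of 0.21. The probe at chr16:18406781-18406840 had 95.6 and 34.96, a log2 fold change of -1.26 with an error of 0.24. These probes, 1 of which holds the run that it shares with *Ctnnd2*, differed by 0.22 on the log2 scale, close to the median range of 0.20 between probes of the 7167 genes with several measured probes. A probe at chr16:18405623-18405682 was well above background with siRNA-NC alone, at 27.0, against 13.2 with siRNA-*Ppp2r5d*, at least 1.76-fold lower. The remaining *Arvcf* probe, chr16:18348309-18348368, was not well above background on either array, at 3.73 and 2.75.

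Taken over its 2 measured probes, *Arvcf* had a log2 fold change of -1.15 with a scanner error of 0.16, 2.22-fold lower, or 45.1% of the control. Of the 20350 genes, 129 had a lower value, or 0.634%. As *Arvcf* was chosen for its low value too, nothing is read from this rank either. In its signal class, intensities of 50 to 200, 1.52% of 4486 genes were at least 2-fold lower. The difference was -0.60 after normexp correction and -0.85 without a filter on dim probes, both less than 2-fold.

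*Ctnnd1* encodes p120-catenin, the broadly expressed member of the family that stabilises cadherins at the membrane. Its probe at chr2:84440999-84441058 had an intensity of 11139 with siRNA-NC and 9616 with siRNA-*Ppp2r5d*, a log2 fold change of -0.02. The probes at chr2:84451993-84452052 and chr2:84441713-84441772 had log2 fold changes of -0.24 and -0.12, from 189 to 140 and from 177 to 142. Averaged, the gene had -0.13 with a scanner error of 0.12, and 27.7% of measured genes had a lower value. A pair of further *Ctnnd1* probes was not well above background on either array, with intensities between 2.75 and 4.67. The *Ctnnd1* value thus lay within about its own scanner error of 0. Those of *Ctnnd2* and *Arvcf*, by which the members were chosen, lay further below 0. Scanner error does not cover the spread between cultures, so nothing is read from the distance of these chosen values from 0.

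**Figure D2:**
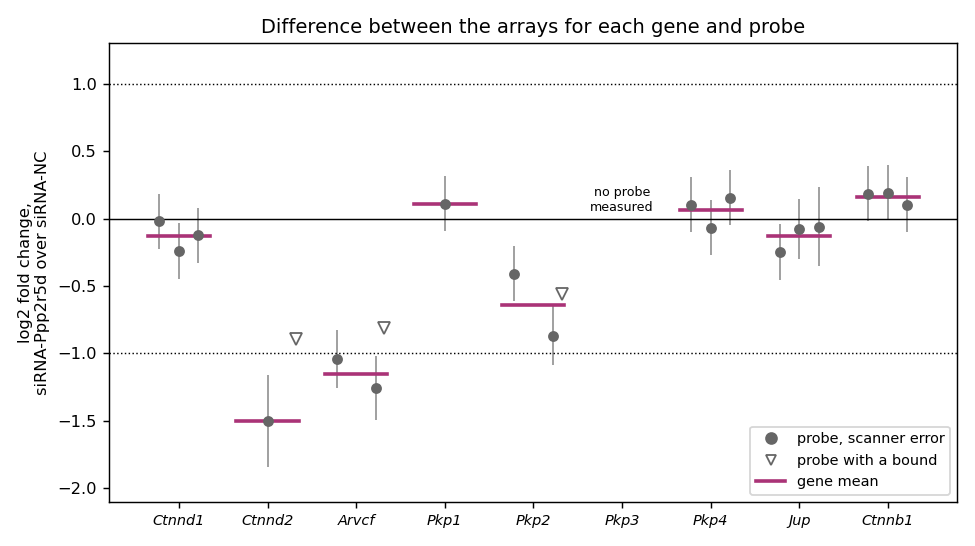
Log2 fold change of siRNA-Ppp2r5d over siRNA-NC for each probe measured on both arrays (points, with the scanner error) and the mean of each gene (line). Triangles are bounds from probes well above background with siRNA-NC alone, and dotted lines mark 2-fold. Ctnnd2 (-1.50) and Arvcf (-1.15) lie below the lower dotted line, Pkp2 (-0.64) between it and 0, and the other 5 measured genes close to 0.

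Among the plakophilins, *Pkp2* was lower by less than 2-fold, while *Pkp1* and *Pkp4* differed little. *Pkp2* encodes the main plakophilin of the heart, which sits at the desmosomes of the intercalated disc. Its probe at chr16:16272648-16272707 had an intensity of 4246 with siRNA-NC and 2798 with siRNA-*Ppp2r5d*, a log2 fold change of -0.41. The probe at chr16:16248126-16248185 had 116 and 55.8, a log2 fold change of -0.87. These values differed by 0.46, more than the median range of 0.20 and less than the 90th percentile of 0.62 between probes of a gene. The last *Pkp2* probe, chr16:16227320-16227379, was well above background with siRNA-NC alone, with 22.6 and 10.8, and was at least 1.47-fold lower.

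All 3 *Pkp2* probes were therefore lower with siRNA-*Ppp2r5d*, and the gene had a log2 fold change of -0.64 with a scanner error of 0.15, 1.56-fold lower. Of the 20350 genes, 795 had a lower value, or 3.91%. This exceeds in size the 5th percentile of -0.50 among 5756 genes with intensities of 200 to 1000. By the probe with the highest signal alone, the value was -0.41.

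*Pkp1*, which encodes a plakophilin best known from the desmosomes of stratified epithelia, was measured by 1 probe, chr1:137768027-137768086. Its intensity was 7933 with siRNA-NC and 7500 with siRNA-*Ppp2r5d*, a log2 fold change of 0.11 with a scanner error of 0.20. *Pkp3*, another plakophilin of epithelial desmosomes, was not well above background on either array, at 2.99 and 5.71 for its only probe, which the scanner files place over chr7:148275636-148275789. No difference is given for *Pkp3*.

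*Pkp4* encodes p0071, a plakophilin relative found at both adherens junctions and desmosomes. The probe at chr2:59193202-59193260 had intensities of 1894 and 1781, a log2 fold change of 0.10. The probe at chr2:59160624-59160683 had 387 and 323, a log2 fold change of -0.07, and that at chr2:59192592-59192651 had 298 and 290, a log2 fold change of 0.16. The probes of *Pkp4* pointed in different directions, each within its scanner error of 0, and the gene had 0.064 with an error of 0.12. The other *Pkp4* probe was not well above background on either array, at 6.29 and 2.88.

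*Jup* encodes plakoglobin, or gamma-catenin, which is found in desmosomes and adherens junctions alike. The probe at chr11:100232376-100232435 had an intensity of 417 with siRNA-NC and 307 with siRNA-*Ppp2r5d*, a log2 fold change of -0.25. The probes at chr11:100228915-100228974 and chr11:100238038-100238097 had 80.1 and 66.5, and 30.05 and 25.2, with log2 fold changes of -0.08 and -0.06. All 3 were a little lower after scaling, and the gene had -0.13 with a scanner error of 0.14. A lower value was found for 27.9% of measured genes.

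*Ctnnb1* encodes beta-catenin. The probe at chr9:120869274-120869333 had intensities of 11214 and 11153, and that at chr9:120865275-120865334 had 1221 and 1219, so that the raw signals hardly differed. Their log2 fold changes after scaling were 0.18 and 0.19. The probe at chr9:120860495-120860554 had 211 and 199, a log2 fold change of 0.10. The gene had 0.16 with a scanner error of 0.12, and its probes lay within 0.086 of each other. The direction of *Ctnnb1*, *Pkp1* and *Pkp4* rested on the scaling. With spike-in scaling, where the median of all genes was -0.15, their values were -0.016, -0.065 and -0.11.

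**Figure D3:**
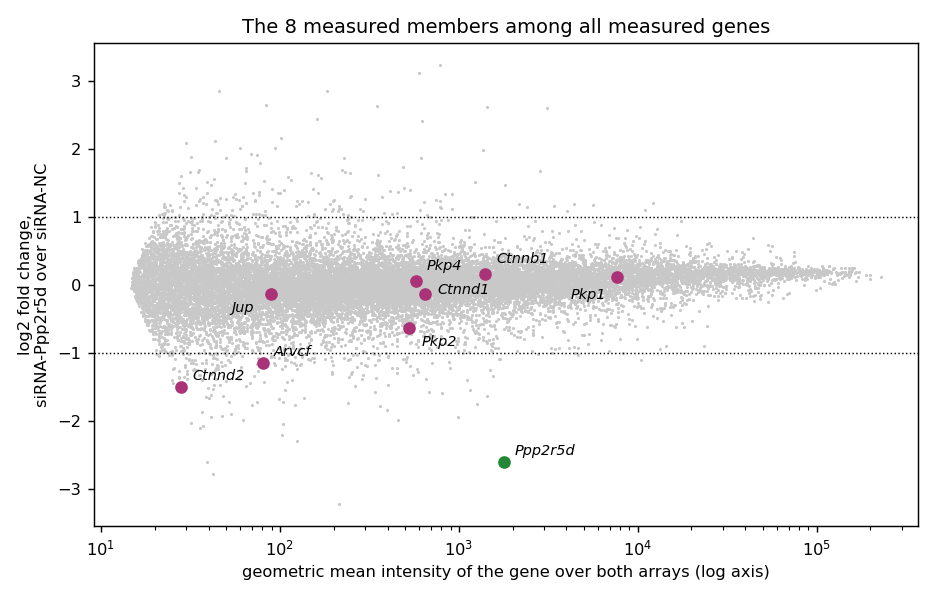
Log2 fold change against geometric mean intensity (log axis) of the 20350 genes measured on both arrays (grey), with the 8 measured members and the targeted gene Ppp2r5d. Dotted lines mark 2-fold. The grey cloud is widest at low intensity, where Ctnnd2 and Arvcf lie, and Ppp2r5d stands at -2.60.

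The 8 measured members fell into an order from *Ctnnd2* (-1.50) through *Arvcf* (-1.15), *Pkp2* (-0.64), *Ctnnd1* (-0.13), *Jup* (-0.13), *Pkp4* (0.064) and *Pkp1* (0.11) to *Ctnnb1* (0.16). *Ctnnd2* and *Arvcf* were 0.35 apart, which does not exceed their combined scanner error of 0.38. *Arvcf* and *Pkp2* were 0.51 apart, as were *Pkp2* and *Ctnnd1*, with combined errors of 0.22 and 0.19. From *Ctnnd1* to *Ctnnb1* the neighbouring genes lay within about 1 combined error, with the widest gap, 0.19, between *Jup* and *Pkp4*, whose combined error was 0.18. *Ctnnd2* and *Arvcf* had the lowest values under every alternative that gave both a value except normexp correction, where *Pkp2* (-0.42) lay below *Ctnnd2* (-0.36). The alternatives reprocess the same arrays on which *Ctnnd2* and *Arvcf* were chosen as lower, so nothing is read from their place in the order.

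**Figure D4:**
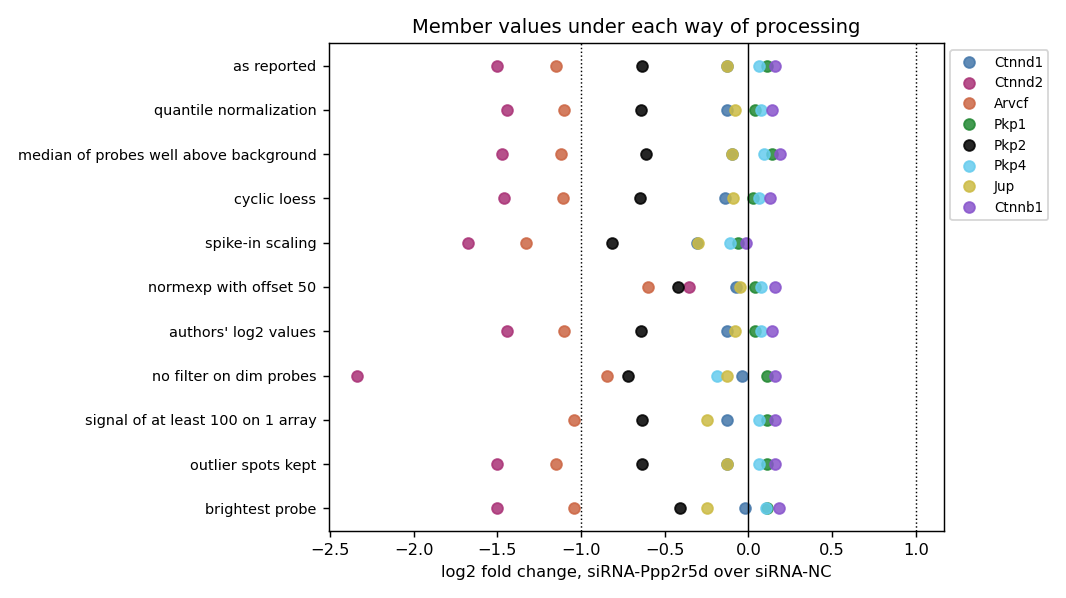
Log2 fold change of the 8 measured members under each way of processing, with dotted lines at 2-fold. Under most ways Ctnnd2 and Arvcf lie left of -1, but normexp correction brings Ctnnd2 to -0.36 and Arvcf to -0.60, and a signal of at least 100 leaves Ctnnd2 without a value.

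The promoters of the members were read for what they share beyond the array signal. The RefSeq promoter table, build GRCm38.p6, held 11 promoters of 6 members. *Pkp1*, *Pkp2* and *Pkp3* had no match. The 250 bases before the start of *Ctnnd2* and of the first of 3 *Arvcf* promoters are shown because these genes were the lowest. Capitals mark the letters CAGGTG, an E-box that SNAI repressors are known to bind.
Ctnnd2, chr15:30172284-30172533, plus strand, GRCm38.p6: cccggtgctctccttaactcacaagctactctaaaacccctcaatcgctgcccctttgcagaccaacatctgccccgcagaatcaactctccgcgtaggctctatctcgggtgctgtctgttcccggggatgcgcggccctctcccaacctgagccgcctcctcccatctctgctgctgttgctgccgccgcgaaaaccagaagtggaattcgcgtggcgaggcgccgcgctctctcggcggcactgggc
Arvcf, chr16:18347932-18348181, plus strand, GRCm38.p6: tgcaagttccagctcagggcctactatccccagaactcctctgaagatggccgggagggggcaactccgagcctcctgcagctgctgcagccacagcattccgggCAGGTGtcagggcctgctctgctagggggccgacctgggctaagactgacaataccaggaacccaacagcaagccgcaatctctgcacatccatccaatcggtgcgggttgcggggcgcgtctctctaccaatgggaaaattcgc
The *Ctnnd2* promoter had a GC content of 62.8% with 21 CpG dinucleotides and the *Arvcf* promoter 60.8% with 11, where the median of all 32851 promoters was 52.4% with 6. The *Arvcf* promoters not shown had 56.8% with 3 and 61.2% with 10. Members that differed little had 74.8% and 74.4% (*Ctnnb1*), 68.4% and 70% (*Pkp4*), 62% (*Jup*), and 66.8% and 40% (*Ctnnd1*). A GC content above the median was thus not particular to *Ctnnd2* and *Arvcf*. On either strand, the E-box letters occurred in the shown *Arvcf* promoter, in 1 *Pkp4* promoter and in 17.2% of all promoters. None of the 11 member promoters held TCCTGCNA, the motif of Kaiso, a transcription factor that p120-catenin binds, or CTTTGAT, the motif of the TCF/LEF partners of beta-catenin. These occurred in 4.03% and 3.21% of all promoters. The GC box GGGCGG stood in promoters of *Arvcf*, *Pkp4*, *Jup* and *Ctnnb1* and in 32.7% of all, and TATAAA in 1 promoter each of *Ctnnd1* and *Ctnnb1* and in 12.4% of all. *Ctnnd2* and *Arvcf* thus had none of the 5 motifs in common in the promoters shown.

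The partners to which the members bind were described from fixed lists, with the same shares of 1.46% and 1.07% over all genes. Of 149 genes in 9 lists measured on both arrays, 70 were lower and 79 higher, with a median of 0.015. Among all genes measured on both arrays, 45.8% were lower. With bounds included, 153 list genes could be counted, 3 at least 2-fold lower and 2 at least 2-fold higher. The 3 lower genes include *Ppp2r5d*, the target of the siRNA. Classical and other cadherins, which delta-catenins and beta-catenin bind, had 0 of 8 genes past 2-fold in either direction. *Cdh2*, N-cadherin of the cardiac adherens junction, had 11172 and 10215 (log2 fold change 0.01), and *Cdh11* -0.09, whereas *Cdh1* was not well above background on either array. *Cdh12* had the highest value at 0.50 and *Cdh15* the lowest measured on both at -0.24. *Cdh17* was well above background with siRNA-NC alone, at 29.9 against 11.7 with siRNA-*Ppp2r5d*. By this bound it was at least 1.94-fold lower, close to the 2-fold mark. Among 18 alpha-catenins and linkers, to which beta-catenin and plakoglobin attach, 0 passed 2-fold. *Ctnna1* had 0.02 and *Vcl* (vinculin) -0.02, and the values ran from -0.42 for *Tjp3* to 0.39 for *Ctnna2*.

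In the desmosomal list, with which *Pkp2* and *Jup* work, 1 of 10 genes was at least 2-fold lower and 1 at least 2-fold higher. *Ppl*, the plakin periplakin, had 738 and 277 (log2 fold change -1.22, 1 of 2 probes), and *Krt8*, a keratin, had 55.3 and 211 (2.16 over 2 probes). *Dsp* had intensities of 4.51 and 3.80, *Dsg2* of 12.0 and 4.62 and *Dsc2* of 3.06 and 2.79. These genes of desmoplakin, desmoglein-2 and desmocollin-2, the binding partners of *Pkp2* and *Jup* in heart muscle, were thus not well above background on either array, while *Pkp2*, *Pkp1* and *Jup* were. *Dsp* and *Dsc2* had 1 probe each. Of the other desmosomal cadherin genes, *Dsc3* (220 and 214) and *Dsg1c* (40.9 and 28.0) were measured on both arrays. *Dsg1a*, *Dsg1b*, *Dsg3*, *Dsg4* and *Dsc1* were at background on both. In the list of intercalated disc and gap junction genes, 1 of 19 passed 2-fold, *Csrp3*, a muscle LIM protein, with 37.7 and 126 (1.93). *Gja1*, connexin 43, had 0.31 over 8 probes, and *Synm* was lowest at -0.72.

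Of 22 partners and regulators of p120 and delta-catenin, 0 passed 2-fold, with a median of 0.025. *Zbtb33*, which encodes Kaiso, had 0.09, and the values ran from -0.73 for *Rnd1* and -0.64 for *S1pr1* to 0.42 for *S1pr2*. For beta-catenin, 0 of 19 genes of the destruction complex and 0 of 23 nuclear partners passed 2-fold. *Axin2*, a scaffold of the complex, came closest at -0.93, with probes at -1.30 and -0.56, while *Gsk3b* had 0.03 and *Apc* -0.06. Of 21 measured WNT/beta-catenin target genes 1 was at least 2-fold lower, *Ccnd1* (cyclin D1), with 16370 and 6661, 2.15-fold. Of the 20 target genes on both arrays, 13 were lower and 7 higher, with a median of -0.17 beside 0.026 for all genes. Among all genes measured on both arrays, 45.8% were lower. *Ctnnb1* itself had 0.16. *Axin2* (-0.93) is on the list of target genes too, in which *Notum* had -0.84 and *Apcdd1* 0.62. Among 17 PP2A subunits, *Ppp2r5d* alone passed 2-fold.

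**Figure D5:**
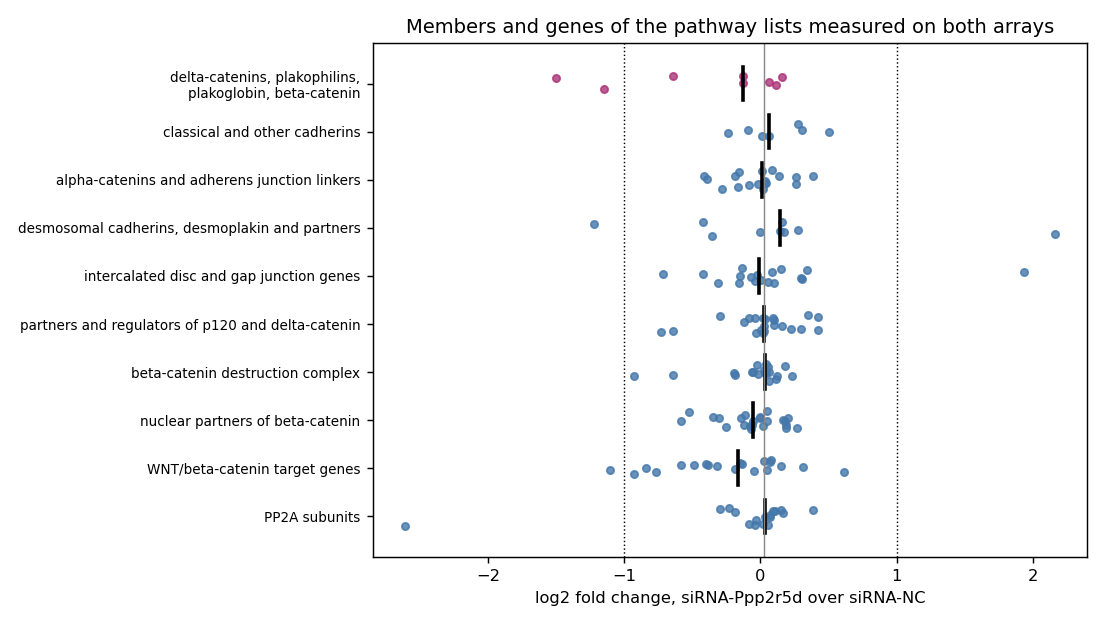
Log2 fold change of the members (top row) and of the genes in 9 fixed lists that were measured on both arrays, 1 point per gene, with the median of each row as a black bar and the median of all genes as a grey line. Dotted lines mark 2-fold. Most list genes lie between the dotted lines, and the medians run from -0.17 for WNT/beta-catenin target genes to 0.147 for desmosomal genes, beside -0.13 for the members.

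Markers of the labelled and of other cell types were read beside these values. Their summed intensities, siRNA-NC first, are given before scaling, and the ratio of the sums, siRNA-*Ppp2r5d* over siRNA-NC, after it. The sums run over all markers of a list, those at background included, and follow its brightest genes. Of 21 cardiomyocyte markers, 14 were measured on both arrays (*Tnnt2*, *Actc1* and *Nkx2-5* among them), with a median log2 fold change of 0.33, sums of 14339 and 13481 and a scaled ratio of 1.07. Of the other markers on this list, *Actn2*, *Myl2*, *Myl7* and *Pln* were not well above background on either array. *Myh6*, *Ryr2* and *Mybpc3* were well above it with siRNA-*Ppp2r5d* alone. Fibroblast markers were measured on both for 9 of 11 genes, with a median of -0.05, sums of 394469 and 376082 and a scaled ratio of 1.09, and *Lum* was 2.12-fold higher. Smooth muscle markers were measured for 5 of 6, with a median of -0.02, sums of 147497 and 134242 and a scaled ratio of 1.04, and *Cnn1* was 5.32-fold higher. These sums were mostly those of *Acta2*, with 133436 and 115480.5. Epithelial markers, relevant to *Pkp1* and *Pkp3*, were measured for 5 of 12, with *Epcam* and *Cdh1* at background. Of these 5, 4 were higher, among them *Krt8* at 4.47-fold, and the median was 0.094. Their sums of 5389 and 3474, a scaled ratio of 0.737, were mostly those of *Krt14*, with 5215 and 3155. Neuronal markers, relevant to *Ctnnd2*, were measured for 7 of 8, with *Rbfox3* at background. Their log2 fold changes ran from -0.37 for *Syn1* to 0.48 for *Stmn2*, with a median of 0.065, sums of 11516 and 12371 and a scaled ratio of 1.23. Macrophage markers were measured for 4 of 5, with a median of -0.01, sums of 6324 and 5285 and a scaled ratio of 0.955. Endothelial markers were measured for 1 of 7, with sums of 95.4 and 83.3 and a scaled ratio of 0.998. The part of these differences in the values of *Ctnnd2*, *Arvcf* and *Pkp2* was not tested.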

How the data were processed

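RNA from 1 siRNA-NC and 1 siRNA-*Ppp2r5d* culture of MCMs was hybridized to a one-colour Agilent mouse array each, and groups were taken from the labels. The authors deposited the intensity of every spot from Feature Extraction 10.7.1.1, background-corrected within each array, and a table of log2 values. That deposited log2 table differed from a quantile normalization of the intensities by a median of 1.4e-05, with a column median of 5.02 on both arrays. The deposited marks of 0 or 1 for spots well above background, outliers and saturation were used as given, and are neither a score nor a level.

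Control spots and outlier spots (126 and 95) were left out, spots of 1 probe averaged, and the 75th percentile of each array subtracted from the log2 intensity. A gene value was the mean log2 fold change over probes well above background on both arrays. Probes above it on 1 array gave a bound against the dim signal, or against the minimum of all signals well above background where that was higher. For 7 genes such bounds opposed each other and no value was given. Genes at least 2-fold apart were counted as changed. No test was run, since 1 array per group leaves no spread between cultures, and the number of arrays limits the precision. The log2 difference between the arrays was also taken spot by spot. Its SD between spots of 1 probe had a median of 0.036 over 292 probes with 10 spots.

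The members, lists and motifs were chosen with earlier results of these data known. Named genes were the members with every probe, *Ppp2r5d*, in each list genes past 2-fold and up to 2 with the largest measured change in each direction, 13 fixed junction genes and up to 3 genes per marker list, and not every one is reported here. The 7 cardiomyocyte genes at background on either array, and the desmosomal cadherin genes other than *Dsg2* and *Dsc2*, were named after their values were seen. Alternatives were 4 other scalings, normexp with an offset of 50, the deposited log2 values, 2 other filters, the probe with the highest signal, retention of outlier spots, and thresholds of 1.5-fold and 4-fold. The gene step was tested on simulated data made from the siRNA-NC array alone, with a noise SD of 0.1 at every intensity. Of 200 genes changed 3-fold among 21138 genes, 200 were recovered, with 0 false calls. The simulated arrays had the same background marks and no wider spread for dim genes. The result therefore checks the calculation only and gives no error rate for genes such as *Ctnnd2* and *Arvcf*. Software was Python 3.11.15 (pandas 2.3.3, NumPy 2.4.6, matplotlib 3.10.9) and limma 3.58.1 in R 4.3.3.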

Additional observations from a re-analysis of the deposited data

How the results depend on the processing

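No paired analysis was possible because each group had 1 array, and for the same reason no replicate could be left out. A value was taken to move when it changed by more than its scanner error, or a count by more than 1.5 times. No member reversed a difference of 2-fold or more. *Arvcf* had -0.85 without a filter on dim probes, -0.60 with normexp correction and -1.33 with spike-in scaling, and *Ctnnd2* had -2.34 and -0.36 with the former pair. *Pkp2* had -0.41 by the probe with the highest signal, -0.42 with normexp and -0.81 with spike-in scaling. Spike-in scaling, over 8 probes, moved *Ctnnd1* to -0.30, *Jup* to -0.30, *Pkp4* to -0.11, *Ctnnb1* to -0.016 and the median of the members to -0.30, while the median of all genes moved from 0.026 to -0.15 and the lower share of changed genes from 57.6% to 79.0%. Without a filter *Pkp4* had -0.18. The members at least 2-fold lower were 2 as reported, 1 without a filter, 0 with normexp, 1 with a signal of at least 100 (where *Ctnnd2* had no value) and 0 at 4-fold, and 1 was at least 2-fold higher without a filter, *Pkp3* at 1.12, whose probe was at background. The list genes past 2-fold, the targeted *Ppp2r5d* among them, were 5 as reported, 8 without a filter, 8 with spike-in scaling, 14 at 1.5-fold and 2 at 4-fold. Among all genes, 316 lower and 233 higher became 45 and 67 with normexp (40.2% lower), 550 and 146 with spike-in scaling, 1119 and 957 without a filter, 143 and 121 with a signal of at least 100, and between 282 and 337 lower and 233 and 263 higher elsewhere. Spike-in scaling replaces the log2 shift of -0.193 between the arrays' 75th percentiles by the spike-in shift of -0.016. By construction it therefore lowers every gene measured on both arrays by the same amount. The cause of the other shifts was not tested. Signal over background limits *Ctnnd2* and the bounds of *Arvcf* and *Pkp2*.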
